A study of Mus musculus with 4 samples.

Results

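The subject is a set of 10 transcription factors that direct the making of rod and cone photoreceptors: Otx2, Crx, Neurod1, Rorb, Prdm1, Nrl, Nr2e3, Esrrb, Thrb and Rxrg. The members were chosen by gene symbol and not by a rule on measured values, though earlier results of these data were known. All 10 were found among 22558 symbols at 23021 loci. The study asked what Fezf2, a zinc-finger transcription factor, does in the developing mouse retina. It used retinas of Fezf2 knockout (KO) mice at postnatal day 14 (P14), of littermates labelled wildtype (control) at P14, of KO mice at postnatal day 7 (P7) and of control littermates at P7. All carried the background written in the labels as C57/BL/6J. Total RNA of whole retina was sequenced as 1 library per genotype and age, 4 in all. The labels give neither the extent of the deletion nor the number of animals behind a library. No Cre line or restriction to a tissue is named.

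Rods and cones arise from precursors that leave the cell cycle and switch on the homeodomain factor Otx2, followed by its relative Crx. Nrl then commits a precursor to the rod fate and acts with Nr2e3, while cells without Nrl follow a cone course in which the thyroid hormone receptor encoded by Thrb and its partner Rxrg choose between the opsins. Prdm1 holds young precursors to the photoreceptor course and away from the bipolar cell fate. Mouse rods are born mostly around birth, and their outer segments form in the postnatal weeks sampled here.

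Levels are in FPKM, a fragment measure divided by both transcript length and library size, so they are per length and can be set against each other between genes. A lower and an upper bound come with every deposited level, and libraries are described as apart where their bounds did not overlap. Each pair of bounds comes from 1 library and does not hold the spread between mice. What enters the bounds is not given in the sources used here. No p-value can be had between genotypes at a single age. The half-width of the members' bounds was between 1.07% and 16.3% of the midpoint, widest for Rxrg in the control at P14. Fezf2 itself, on mm9 chr14:13174406-13178379, was at 0.126 (KO) and 4.02 FPKM (control) at P14, and at 0.592 (KO) and 8.32 FPKM (control) at P7. Its bounds lay apart at both ages. The labelled tissue carried a defining marker at a high level, since the rod gene Gnat1 was at 5236 (KO) and 4979 FPKM (control) at P14. Markers of neighbouring tissue differed between libraries: the summed FPKM of 5 blood markers was 356 in the KO and 1180.0 in the control at P14, against 339 in the KO and 291 in the control at P7. Those of 8 pigment epithelium markers were 37.5 in the KO and 55.4 in the control at P14, and 53.3 in the KO and 43.6 in the control at P7. The 3 lens markers summed to 0.429 (KO) and 6.81 FPKM (control) at P14, and to 6.26 (KO) and 0.759 FPKM (control) at P7, with Cryba1 at 0 in the KO at P14. The part of these tissues in the results was not tested. In bulk retina, fewer cells of a type and less RNA per cell cannot be told apart.

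Upstream sequence was read from RefSeq on GRCm38.p6, a later build than the mm9 of the expression files, and all 10 members had an entry, with 17 start sites in all. A window held the 250 bases before a start, and some windows included annotated exon bases. Shown here are Crx, for its matches to the core letters bound by Otx2 and Crx, and the members with the steepest changes between the ages, Prdm1 and Esrrb. The core letters GGATTA, searched on both strands, are in capitals.
Crx (chr7:15879956-15880205, minus strand): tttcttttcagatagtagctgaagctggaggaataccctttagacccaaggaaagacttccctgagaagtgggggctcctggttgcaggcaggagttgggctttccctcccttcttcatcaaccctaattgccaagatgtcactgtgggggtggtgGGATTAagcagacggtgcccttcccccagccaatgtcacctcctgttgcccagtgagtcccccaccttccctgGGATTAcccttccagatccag
Prdm1 (chr10:44458749-44458998, minus strand): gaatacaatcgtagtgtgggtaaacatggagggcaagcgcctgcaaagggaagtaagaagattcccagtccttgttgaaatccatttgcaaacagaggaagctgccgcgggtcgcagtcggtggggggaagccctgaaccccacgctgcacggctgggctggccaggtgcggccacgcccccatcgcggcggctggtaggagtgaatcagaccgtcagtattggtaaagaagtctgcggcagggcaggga
Esrrb, upstream start (chr12:86360867-86361116, plus strand): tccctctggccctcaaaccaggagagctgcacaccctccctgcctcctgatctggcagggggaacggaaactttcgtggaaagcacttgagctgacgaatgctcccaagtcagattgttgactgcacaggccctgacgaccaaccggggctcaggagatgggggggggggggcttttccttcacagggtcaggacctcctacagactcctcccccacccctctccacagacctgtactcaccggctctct
Esrrb, downstream start (chr12:86421394-86421643, plus strand): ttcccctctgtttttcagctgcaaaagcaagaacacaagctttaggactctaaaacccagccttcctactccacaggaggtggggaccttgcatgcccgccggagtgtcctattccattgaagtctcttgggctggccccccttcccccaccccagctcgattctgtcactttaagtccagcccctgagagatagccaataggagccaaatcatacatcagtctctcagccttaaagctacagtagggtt
The Crx window held GGATTA at 94 and at 21 bases before the start. The Prdm1 window and both Esrrb windows did not hold these letters. Among the members, 3 of 17 windows held the letters, while 6.25% of all 32851 promoter windows held them. The 3 were those of Crx, of Otx2 at start 3 of its 4 and of Thrb at its upstream start. All 250 bases of that Otx2 window, and of the Nrl window, lay in annotated exons. The Crx window held 13 exon bases and that Thrb window 68. The windows of Otx2 starts 1 and 2 overlapped, so the 17 windows are not 17 separate promoters. The core of the Nrl recognition element, TGCTGA on either strand, stood in 3 of 17 windows (1 each of Otx2, Neurod1 and Rorb) and in 16.1% of all windows. The nuclear receptor half-site AGGTCA, on either strand, stood in 2 of 17 windows (1 each of Thrb and Rxrg) and in 14% of all windows. No match overlapped a match to another of these motifs. A match describes letters in a window and not a bound site.

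**Figure D1:**
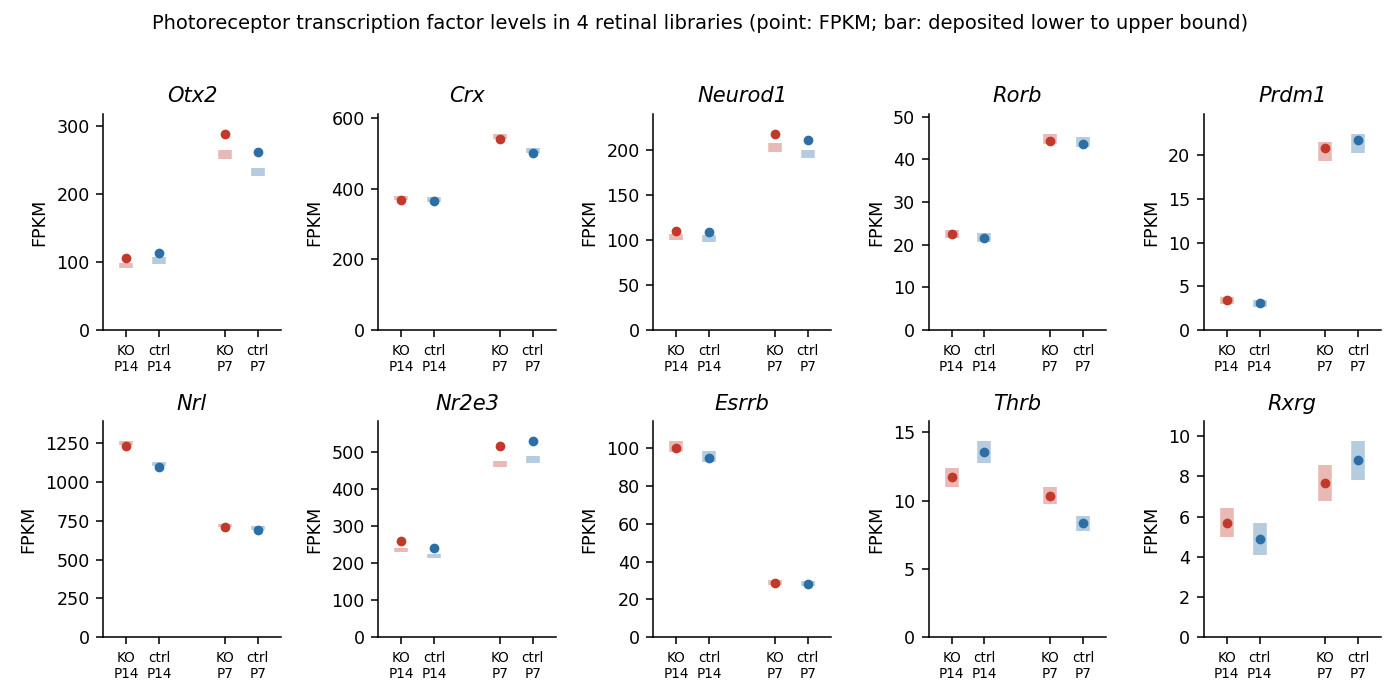
FPKM of each of the 10 factors in the 4 libraries (KO and control at P14, KO and control at P7; 1 library each), as points, with the deposited lower to upper bound as a bar on a linear axis from 0. Nrl, Esrrb and Thrb were higher at P14 than at P7 and the other 7 factors lower; for Otx2, Nr2e3 and Neurod1 the deposited level lies above its own bounds in all 4 libraries.

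The members covered a wide range of abundance, and Nrl led in all 4 libraries. Nrl made up 55.4% of the members' summed FPKM in the KO and 53.2% in the control at P14, and 29.8% in the KO and 30.02% in the control at P7. The sum over all members was 2220.3 (KO) and 2065 FPKM (control) at P14, and 2387 (KO) and 2308 FPKM (control) at P7, so the balance between the factors moved more than their total. At P14 the order below Nrl began with Crx and Nr2e3 in both genotypes, and Otx2, Neurod1 and Esrrb followed at similar levels. Among these 3, the bounds of Esrrb overlapped those of Otx2 and of Neurod1 in the KO, and all overlapped each other in the control. Rorb, Thrb and Rxrg came next, and Prdm1 was last in both genotypes. At P7 Crx and Nr2e3 followed Nrl; by their bounds Crx lay above Nr2e3 in both genotypes, while the deposited level of Nr2e3 in the control, which lies above its own bounds, exceeded that of Crx. Prdm1 stood eighth, above both cone factors, whose bounds overlapped each other in the control. Sums, shares and ratios use deposited levels, and those of Nr2e3, Otx2 and Neurod1 lie above their own bounds in all 4 libraries. The ratio of Nrl to Nr2e3 was 4.72 in the KO and 4.55 in the control at P14, and 1.37 in the KO and 1.30 in the control at P7. The ratio of Esrrb to Rorb, a rod maintenance factor over an early inducer of Nrl, was 4.48 in the KO and 4.39 in the control at P14, against 0.651 in the KO and 0.648 in the control at P7.

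All 10 factors differed between P14 and P7 with bounds apart in each genotype: Nrl, Esrrb and Thrb were higher at P14 and the other 7 lower. Bounds lay apart for 68.4% of the 13044 genes compared in the KO (29% higher and 39.4% lower at P14) and for 65.3% of the 13112 genes compared in the control (27.6% higher and 37.7% lower), so a difference with age was common among all genes. Under median-of-ratios scaling the split of all genes was 4484 higher and 4386 lower in the KO and 4322 higher and 4221 lower in the control, against 3788 and 5134 in the KO and 3616 and 4944 in the control on the FPKM scale. On a TPM scale (FPKM rescaled to equal totals) Thrb no longer lay apart in the KO, and under median-of-ratios scaling Rxrg no longer did. A difference of 1.5-fold or more on the log2(FPKM + 1) scale, with bounds apart, was reached by 7 of 10 members in the KO and 9 of 10 in the control, against 38.5% and 36.5% of all genes. The members' median log2 difference, P14 minus P7, was -0.75 in the KO and -0.84 in the control, beside medians over all genes of -0.09 and -0.08. A limma fit on log2(FPKM + 1) took both factors of the design over all 4 libraries, where the other genotype serves as the repeat of each age and 1 residual degree of freedom is left. In that fit, 10 of 10 members passed an adjusted p (Benjamini-Hochberg over 12934 genes) of 0.05 for age (9 with no filter on low values, where Thrb missed it), 3 higher and 7 lower, against 71.3% of all genes (30.7% higher and 40.6% lower). The fit borrows its spread from all genes, and its p-values do not measure a spread between mice.

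Otx2, needed for photoreceptor and bipolar fates and active in the pigment epithelium too, was at 105 (KO) and 114 FPKM (control) at P14, and at 289 (KO) and 261 FPKM (control) at P7. It fell with age by 1.32 on the log2 scale (SE 0.08, limma adjusted p = 2.79e-08). Its difference was the second steepest among the members that fell. Crx, the activator of many rod and cone genes, was at 369 (KO) and 365 FPKM (control) at P14, and at 540.2 (KO) and 502 FPKM (control) at P7. It fell by 0.50 (SE 0.06, limma adjusted p = 2.20e-05), less than Otx2. On deposited levels, which for Otx2 lie above its own bounds, the ratio of Crx to Otx2 was accordingly 3.50 in the KO and 3.21 in the control at P14. It was 1.87 in the KO and 1.92 in the control at P7.

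Neurod1, a bHLH factor that helps photoreceptors survive and keeps Thrb active in cones, was at 110.5 (KO) and 109 FPKM (control) at P14, and at 218 (KO) and 211 FPKM (control) at P7. Rorb, a nuclear receptor that induces Nrl in precursors, was at 22.4 (KO) and 21.6 FPKM (control) at P14, and at 44.4 (KO) and 43.6 FPKM (control) at P7. Both fell by almost the same step, Neurod1 by 0.96 (SE 0.07, limma adjusted p = 1.32e-07) and Rorb by 0.97 (SE 0.08, limma adjusted p = 5.35e-07). Prdm1, the zinc-finger repressor also called Blimp1, was at 3.38 (KO) and 3.06 FPKM (control) at P14, and at 20.8 (KO) and 21.8 FPKM (control) at P7. No other member fell as far, and its FPKM at P14 was 0.163 of that at P7 in the KO and 0.140 of it in the control (limma log2 -2.40, SE 0.10, adjusted p = 2.33e-09). Lower differences than that of Prdm1 were seen for 0.322% of genes in the KO and 0.175% in the control.

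Nrl, the leucine-zipper factor that sets the rod fate, was at 1231 (KO) and 1098 FPKM (control) at P14, and at 710.4 (KO) and 693 FPKM (control) at P7. It rose by 0.73 (SE 0.06, limma adjusted p = 9.51e-07) and ranked 19th in the KO and 20th in the control among 21803 genes at P14. Nr2e3, the orphan nuclear receptor that represses cone genes in rods, moved the other way. It was at 261 (KO) and 242 FPKM (control) at P14, and at 518 (KO) and 531 FPKM (control) at P7, and fell by 1.06 (SE 0.07, limma adjusted p = 6.17e-08). Esrrb, an estrogen-related receptor that supports mature rods, was at 100.3 (KO) and 94.9 FPKM (control) at P14, and at 28.9 (KO) and 28.2 FPKM (control) at P7. Its rise of 1.74 (SE 0.08, limma adjusted p = 2.55e-09) was the largest of the members, a ratio of P14 to P7 of 3.47 in the KO and 3.36 in the control. Of the 3 rod factors, 2 thus rose and 1 fell.

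Thrb, which encodes a receptor that drives the middle-wavelength opsin in mouse cones, was at 11.7 (KO) and 13.5 FPKM (control) at P14, and at 10.3 (KO) and 8.35 FPKM (control) at P7. The files list 2 start groups for Thrb but 1 level per gene, so its products are not separated from each other. Over both genotypes Thrb rose by 0.40 (SE 0.12, limma adjusted p = 0.00856). Its log2 difference, P14 minus P7, was 0.17 in the KO and 0.64 in the control. Rxrg, the retinoid X receptor that pairs with the Thrb product and is also made by ganglion cells, was at 5.70 (KO) and 4.90 FPKM (control) at P14, and at 7.65 (KO) and 8.80 FPKM (control) at P7. It fell by 0.55 (SE 0.12, limma adjusted p = 0.000997). The ratio of Thrb to Rxrg was above 1 in both libraries at P14, at 2.05 in the KO and 2.76 in the control, and was 1.35 in the KO and 0.949 in the control at P7.

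**Figure D2:**
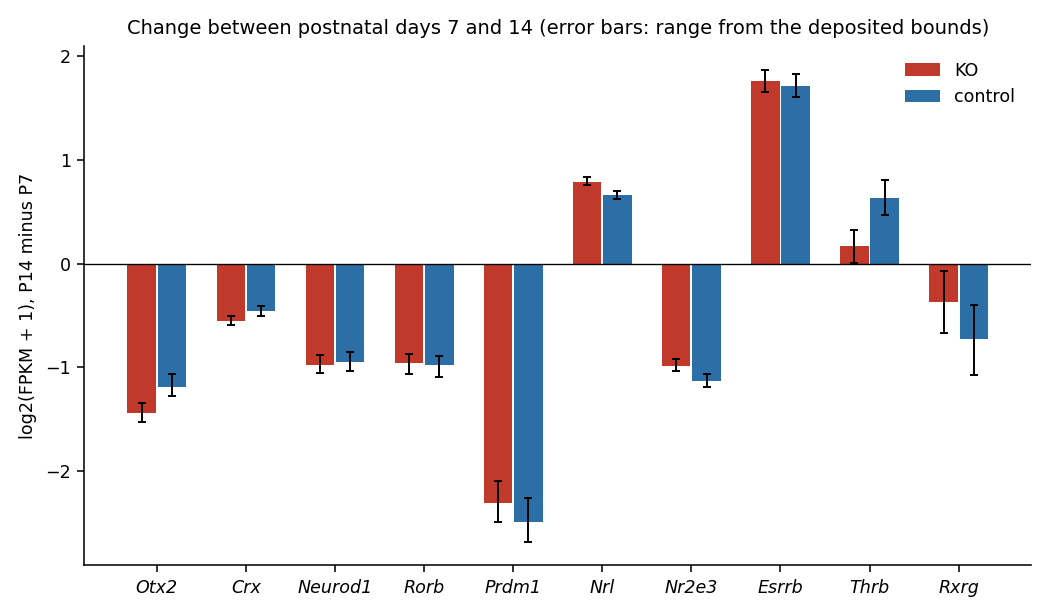
Difference between P14 and P7 in log2(FPKM + 1) for each factor, with KO and control as neighbouring bars (1 library per genotype and age) and error bars for the range that the deposited bounds allow. Prdm1 reached -2.32 in the KO and -2.49 in the control and Esrrb 1.76 in the KO and 1.71 in the control, while Thrb differed most between the bars, at 0.17 in the KO and 0.64 in the control.

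Between the genotypes the members' log2 differences lay between -0.19 and 0.18 at P14 and between -0.18 and 0.28 at P7. A 1.5-fold difference with bounds apart was reached by 0 of 10 at either age. Of all genes, 1.16% at P14 and 0.797% at P7 reached it, so 0 of 10 is near the share of all genes. At P14, bounds were apart for 3 members, with Nrl and Nr2e3 higher and Thrb lower in the KO, against 15.7% of 12804 genes (7.45% higher and 8.24% lower), and for the other 7 they overlapped. At P7 bounds were also apart for 3 members, with Otx2, Crx and Thrb higher in the KO, against 13.4% of 12665 genes (7.34% higher and 6.1% lower). The TPM scale, which splits all genes into 644 higher and 1441 lower at P14 and 673 higher and 970 lower at P7 (954 and 1055 at P14 and 929 and 772 at P7 on the FPKM scale), ended the separation of Nr2e3 at P14 and added Otx2 as lower there and Nr2e3 as lower at P7. Median-of-ratios scaling added Nrl as higher at P7. Bounds narrow with abundance, and among genes at 20 FPKM or more the shares apart were 27.3% at P14 and 20.6% at P7. Members apart numbered 3 of 10 at each age, among them Thrb, which was under 20 FPKM. Rxrg at both ages and Prdm1 at P14 were also under it, so the sets differ. The members' median log2 difference, KO minus control, was 0.06 at P14 and 0.03 at P7, beside 0.00 and 0.01 for all genes and 0.05 at both ages for genes at 20 FPKM or more.

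**Figure D3:**
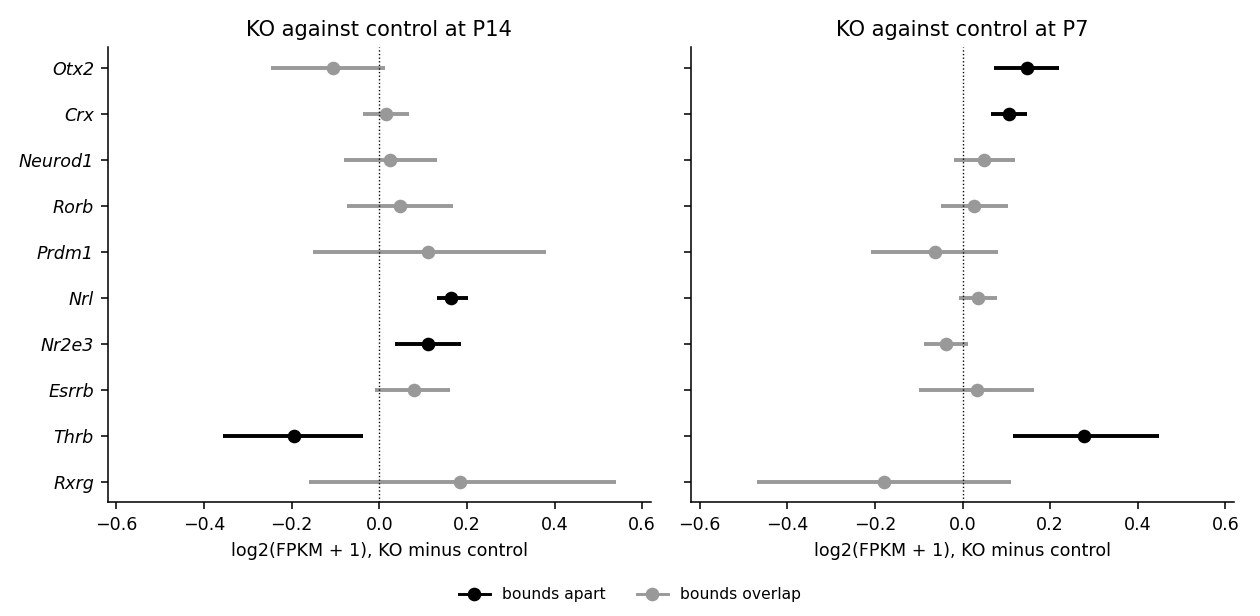
KO minus control in log2(FPKM + 1) for each factor at P14 and at P7 (1 library per genotype and age), with lines for the range that the deposited bounds allow; black marks bounds apart and grey marks overlap. Thrb is the factor with black lines on opposite sides of 0, at -0.19 at P14 and 0.28 at P7.

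Thrb differed between the genotypes with bounds apart at each age, in opposite directions. It was at 11.7 (KO) and 13.5 FPKM (control) at P14 (log2 difference -0.19), and at 10.3 (KO) and 8.35 FPKM (control) at P7 (0.28). Thrb was the 1 member of 10 with bounds apart in opposite directions at the ages, a pattern found in 1.46% of 13246 genes. The difference between those differences, -0.47, was not tested, since no library is left to measure its spread. Summed FPKM of 4 cone markers was 480.5 in the KO and 477 in the control at P14, and 116 in the KO and 90.0 in the control at P7. With bounds apart, 1 of the 4 was higher (Opn1sw) and 2 were lower (Arr3 and Gnat2) in the KO at P14, and 1 was higher (Opn1sw) at P7; their part in the Thrb values was not tested. Thrb lies on the same chromosome as the deleted gene, 5.315 Mb away on mm9, and so do Otx2 (36.099 Mb) and Nrl (42.959 Mb). Rxrg, its partner, had 5.70 (KO) and 4.90 FPKM (control) at P14 and 7.65 (KO) and 8.80 FPKM (control) at P7, the opposite signs to Thrb, with bounds that overlapped at both ages.

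Among the early factors, Otx2 had 105 (KO) and 114 FPKM (control) at P14, with bounds that overlapped (log2 difference -0.11), and 289 (KO) and 261 FPKM (control) at P7, with bounds apart (0.15). Otx2 is also made by bipolar cells and pigment epithelium. At P14 all 4 bipolar markers were lower in the KO with bounds apart, summing to 210 (KO) and 266 FPKM (control), and 5 of 6 pigment epithelium markers at 1 FPKM or more were lower. At P7, 2 of the 4 bipolar markers were lower in the KO with bounds apart, summing to 382 (KO) and 400 FPKM (control), and 2 of 6 pigment epithelium markers were higher. The part of those cells in the Otx2 values was not tested. Crx differed in the KO by 0.01 at P14 and by 0.11 at P7, with bounds apart at P7 alone. Neurod1, Rorb and Prdm1 had bounds that overlapped at both ages, with log2 differences of 0.11 at P14 and -0.06 at P7 for Prdm1 at the ends of their range.

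Among the rod factors, Nrl differed by 0.16 at P14 and 0.04 at P7, and Nr2e3 by 0.11 at P14 and -0.04 at P7, with bounds apart at P14 alone for each. Esrrb differed by 0.08 at P14 and 0.03 at P7, and its bounds overlapped at both ages. The 4 rod markers summed to 17540.2 (KO) and 16550.6 FPKM (control) at P14, and to 3519 (KO) and 3432 FPKM (control) at P7, and their part in the Nrl and Nr2e3 values was not tested. In the limma fit, 0 of 10 members passed for genotype at an adjusted p of 0.05, against 0.24% of 12934 genes, all 31 of them lower in the KO. At an unadjusted limma p of 0.05, 0 of 10 members and 1182 of 12934 genes passed, so 0 of 10 is near the share of all genes. The members' fitted log2 differences lay between 0.00 for Rxrg and 0.10 for Nrl (SE 0.06 for Nrl and 0.12 for Rxrg), negative for Otx2 and Rxrg on a TPM scale, with adjusted p between 0.693 and 0.997. Because that fit averages over the ages, differences of opposite sign cancel in it, as for Thrb (0.04, SE 0.12). Fezf2 in the same fit was lower in the KO by 2.35 on the log2 scale (limma adjusted p = 2.28e-06).

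**Figure D4:**
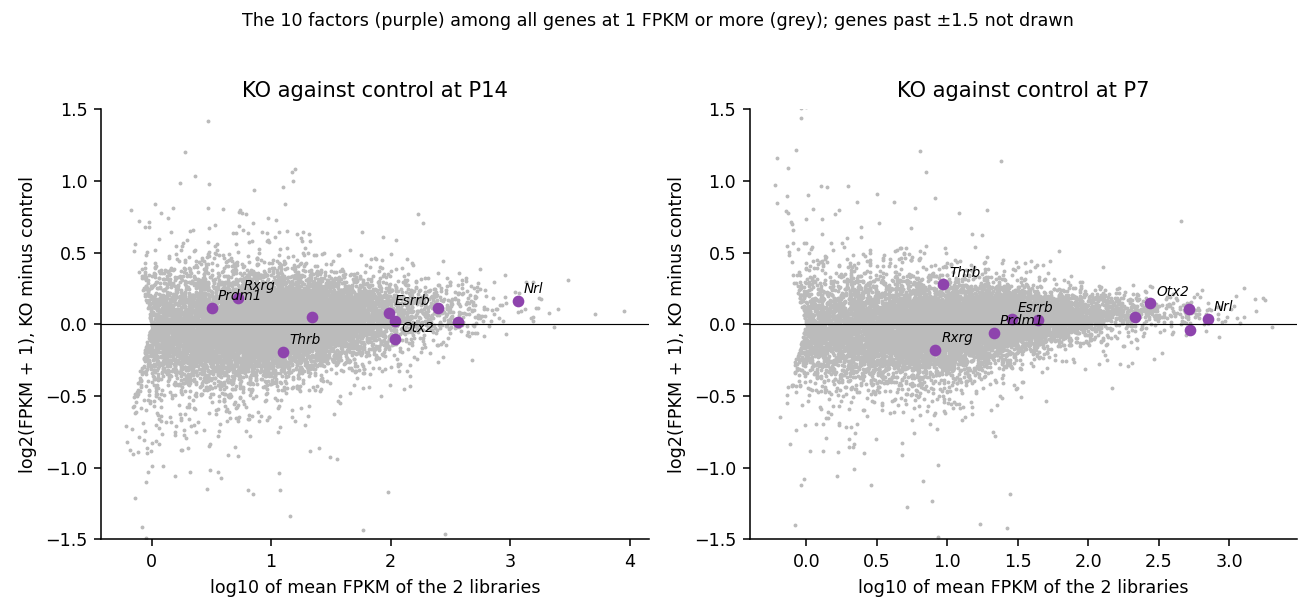
KO minus control in log2(FPKM + 1) against the log10 of the mean FPKM of both libraries at P14 and at P7, with every compared gene in grey and the 10 factors in purple; genes past 1.5 either way are not drawn. All 10 factors sit between -0.19 and 0.28. Thrb, the largest in size of the members at each age, exceeded 74.3% of compared genes in size at P14 and 91.3% at P7, without matching for level.

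Genes downstream of or beside these factors were taken as lists, counted by bounds between the genotypes and by the limma fit with age. Of all genes, that fit called 30.7% higher and 40.6% lower at P14, as given above. The 15 rod genes all rose with age in the limma fit, by a median of 2.07. Between genotypes, the KO had 10 of 15 rod genes higher and 2 lower at P14, and 2 were higher and 7 lower at P7, with medians of 0.08 and -0.09. Transducin alpha (Gnat1), the steepest riser among the 4 most abundant rod genes, was at 5236 (KO) and 4979 FPKM (control) at P14 and 107 (KO) and 130 FPKM (control) at P7. Kcnj14, a potassium channel gene, was past 1.5-fold at P7, with 1.21 (KO) and 2.64 FPKM (control).

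Of 13 cone genes, 10 rose with age in the limma fit and 1 fell (Gnb3, the cone transducin beta subunit). In the KO, 3 were higher and 2 lower at P14, and 6 were higher and 0 lower at P7, with medians of 0.05 and 0.22. Among the most abundant, the cone phosphodiesterase subunit Pde6h was at 432 (KO) and 362 FPKM (control) at P14 and 144 (KO) and 109 FPKM (control) at P7. The cone arrestin gene Arr3 was past 1.5-fold lower at P14, at 26.2 (KO) and 40.9 FPKM (control). Of 20 genes used by both photoreceptors, 16 rose and 3 fell with age in the limma fit, and in the KO 9 were higher and 5 lower at P14 and 7 were higher and 4 lower at P7. Rpgrip1, which anchors a protein complex at the connecting cilium, was the 1 gene of all these lists that passed limma for genotype, lower by 0.69 (SE 0.10, adjusted p = 0.0124); with no filter on low values limma called 0 genes for genotype (1129 at an unadjusted p of 0.05). It was at 17.7 (KO) and 33.1 FPKM (control) at P14 and at 27.4 (KO) and 39.3 FPKM (control) at P7. Distances to Fezf2 were taken for the members alone, and the cause of the Rpgrip1 difference was not tested.

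Other regulators of the photoreceptor course mostly fell as the members did: of 25 in the limma fit, 18 fell and 4 rose with age. Rax, an early eye-field homeodomain gene, was at 86.5 (KO) and 76.5 FPKM (control) at P14 and 146 (KO) and 149 FPKM (control) at P7. Of 23 at 1 FPKM or more, 6 were higher in the KO and 3 lower at P14, and of 24, 5 were higher and 3 lower at P7. Among genes that handle thyroid hormone, the ligand of the Thrb product, the activating deiodinase Dio2 rose (limma log2 2.87, adjusted p = 4.02e-09), at 17.7 (KO) and 13.3 FPKM (control) at P14 and 1.12 (KO) and 1.35 FPKM (control) at P7. Crym, which binds the hormone in the cell, fell (limma log2 -2.12, adjusted p = 2.42e-10). Of 4 such genes in the fit, 2 rose and 2 fell. Dio3, the inactivating deiodinase, was at 0.728 (KO) and 1.69 FPKM (control) at P14, past 1.5-fold with bounds apart. At P7 it was the other way round, at 0.598 (KO) and 0.143 FPKM (control), but both values were under the floor of 1 FPKM and it was not counted there.

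Regulators of the bipolar fate, the alternative that Prdm1 holds back, also fell with age in the limma fit, 11 of 12 of them, with Sebox the exception that rose. Neurod4, a bHLH gene among the most abundant of them, was at 75.6 (KO) and 95.1 FPKM (control) at P14 and 136 (KO) and 132 FPKM (control) at P7. In the KO, 1 of 12 was higher and 4 were lower at P14, and 3 were higher and 0 lower at P7, where Irx6 was past 1.5-fold at 18.5 (KO) and 11.6 FPKM (control). Of 11 progenitor genes in the limma fit, 10 fell and 1 rose with age (Hes1), and with bounds apart in the KO 0 of 8 differed at P14 and 1 of 12 was higher and 1 lower at P7. In all these lists the counts apart are to be read against the 15.7% of genes at P14 and 13.4% at P7 given above, and for genes at 20 FPKM or more against 27.3% at P14 and 20.6% at P7. On the TPM scale the counts of higher and lower genes in the KO became 8 and 4 for rod genes, 3 and 3 for cone genes, 9 and 8 for genes of both photoreceptors and 4 and 3 for the other regulators at P14. At P7 they became 1 and 9 for rod genes, 6 and 4 for genes of both photoreceptors, 3 and 3 for the other regulators, 3 and 1 for bipolar regulators and 0 and 1 for progenitor genes.

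**Figure D5:**
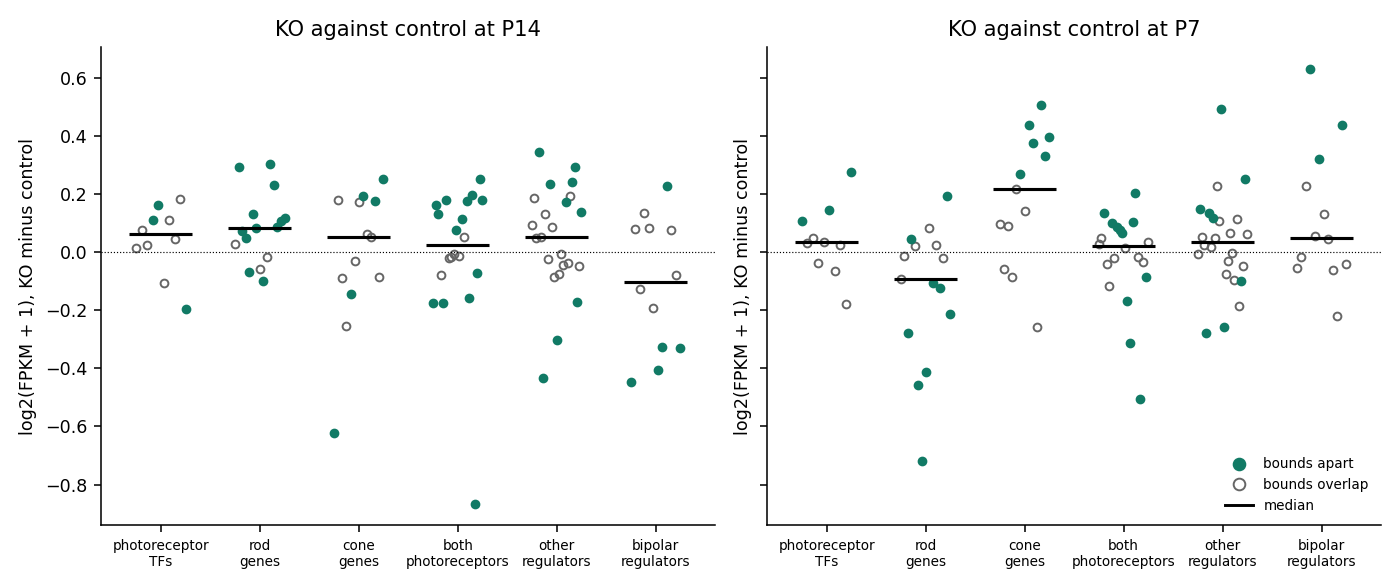
KO minus control in log2(FPKM + 1) at P14 and at P7 for each gene at 1 FPKM or more of the photoreceptor transcription factors (TFs) and of 5 related lists, 1 library per genotype and age; filled points have bounds apart and bars mark list medians. The factors lie between -0.19 and 0.18 at P14 and between -0.18 and 0.28 at P7. The rod genes lie between -0.10 and 0.31 at P14, a similar span, and reach -0.72 at P7 for Kcnj14, at 1.21 (KO) and 2.64 FPKM (control). The genes of both photoreceptors reach -0.87 at P14, for Rpgrip1.

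The genes whose profile over the 4 libraries was most like that of Esrrb, the steepest riser, were Srxn1, S100a1, Slc17a8, Dbp and A230050P20Rik, with Euclidean distances between centred log2 profiles of 0.06 to 0.07 among 11507 genes. Dbp, a clock-controlled transcription factor, was at 127 (KO) and 123 FPKM (control) at P14 and 39.3 (KO) and 36.6 FPKM (control) at P7. For Prdm1, the steepest faller, they were Ctxn1, Cxcr4, Mycn, Cd24a and Lrp4, at distances of 0.08 to 0.13. Mycn, a Myc family factor of dividing cells, was at 5.04 (KO) and 4.30 FPKM (control) at P14 and 30.8 (KO) and 29.5 FPKM (control) at P7. Each profile holds 4 values, 1 per library.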

How the data were processed

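Each of the 4 deposited tables holds, per the file headers, 1 FPKM per gene with its bounds and a status. Per the submitters' processing notes the authors used CASAVA 1.8.2, TopHat2 2.0.8b, Cufflinks 2.1.1 and the mm9 build to make the FPKM values, and which annotation and options is not given in the sources used here. Per the labels' protocols, cDNA was primed at random, amplified and read as single ends with no strand-marking step, so antisense reads cannot be told apart; no member overlaps another listed locus.

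The files hold no counts, so depth is known only roughly. If the bounds span 2 standard deviations each side and hold counting error alone, the members rest on about 150 fragments (Rxrg, control P14) to 34680 (Nrl, KO P14). Low members are the least precise. The deposited level lay outside its own bounds in 1 or more libraries for 5 members (Crx, Nrl, Nr2e3, Otx2 and Neurod1), so bounds were set only against bounds.

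The 251 symbols at several loci were summed (no member is among them), 739 small RNA or short loci (under 300 bases) and 16 symbols with a failed value were left out. Genes at 1 FPKM or more in either library were compared on log2(FPKM + 1), a scale that shrinks differences of low genes. limma 3.58.1 in R 4.3.3, with a variance trend, fitted genotype and age to genes that reached 1 FPKM in 2 or more libraries. It was also run on data simulated from its own model, with an equal genotype effect at both ages. Such data cannot show whether its assumptions hold in these libraries. Other steps used Python 3.11.15 and pandas 2.3.3. Of 151 list genes 150 were matched, 2 by an older symbol. The text names all members and Fezf2, genes among the 4 most abundant of each list or past 1.5-fold with bounds apart, and the 5 genes nearest in profile to the steepest members; genes that break a list's direction, and the defining markers of other cell types, are named too. The members and lists were chosen with earlier results of these data known. Alternatives were a pseudocount of 0.1, a TPM scale, median-of-ratios scaling, no filter on low values, all small genes kept, no variance trend and the highest locus of each symbol.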

Additional observations from a re-analysis of the deposited data

Results flagged for a closer look

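For 5 of the 10 factors the KO library lay on opposite sides of the control at the ages, and 45.3% of 13246 genes did the same. None of these differences between ages was tested, since each genotype and age has 1 library. The log2 difference at P14 minus that at P7 was -0.472 for Thrb, with bounds apart at both ages, lower in the KO at P14 and higher at P7. For Otx2 it was -0.252, with bounds apart at P7 alone. For Nr2e3 it was 0.149, with bounds apart at P14 alone. For Rxrg it was 0.363 and for Prdm1 0.175, and the bounds of both overlapped at each age.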

How the results depend on the processing

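No paired analysis was possible because each genotype and age holds 1 library, so no replicate numbers pair the samples; the limma fit already sets KO against control within each age. Leaving out any library leaves limma no residual degree of freedom, so it was not run. The count of members with bounds apart in opposite directions at the ages, 1 in the report (Thrb), was 2 on a TPM scale, an alternative added after seeing the data, where Otx2 joined. The share of all genes with that pattern, 1.46% on the FPKM scale, was not computed on the TPM scale. The limma genotype difference turned negative on the TPM scale for Otx2 (-0.0105) and Rxrg (-0.0230), none passing the threshold under any setting. The limma age step of Thrb did not pass with no filter on low values (0.40, adjusted p = 0.0848), so 9 of 10 members passed there; under the other settings all 10 passed, with the same directions. Thrb lost its separation between the ages in the KO on the TPM scale, and Rxrg lost its own under median-of-ratios scaling. Changes of the genotype calls with scaling stand in the report. Of 120 member log2 values under alternatives, 96 stayed within the range that their bounds allow and 24 moved outside it. Where bounds lay apart, 0 changed sign. The all-gene median between the ages was -0.09 in the KO and -0.08 in the control, -0.17 in the KO and -0.16 in the control on the TPM scale, and 0.01 in the KO and 0.02 in the control under median-of-ratios scaling. Genes called for genotype by limma numbered 31, and 21 with a pseudocount of 0.1, 20 on the TPM scale, 17 without a trend, 34 with small genes kept and 0 with no filter (1129 at an unadjusted p of 0.05). Depth limits Rxrg, Prdm1 at P14 and Thrb most. The spread between mice was not measured.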

Other observations

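Markers of nearby cell types also differed between the genotypes, in values not used above. At P7, 3 of 4 horizontal cell markers were higher in the KO with bounds apart (Lhx1 at 7.54 (KO) and 5.20 FPKM (control), Onecut1 at 6.40 (KO) and 4.26 FPKM (control), and Onecut2 at 2.42 (KO) and 1.72 FPKM (control)). At P14, 1 of 3 horizontal cell markers at 1 FPKM or more was higher in the KO with bounds apart. Of the ganglion cell markers, 3 of 4 were higher in the KO at P14, with Sncg at 346 (KO) and 283 FPKM (control). At P7, 2 of 4 ganglion cell markers were higher, and 1 of 4 on the TPM scale. Amacrine markers were lower in the KO with bounds apart for 2 of 4 at each age, with Gad1 at 91.0 (KO) and 102 FPKM (control) at P14 and 47.1 (KO) and 53.9 FPKM (control) at P7. The whole-gene background of 15.7% at P14 and 13.4% at P7 applies to these counts too.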
